A study of Mus musculus with 16 samples.

Results

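The response of the left atrium (LA) to angiotensin II (AngII) was measured in elderly ovariectomized (Ovx) mice. It is described here from 8 of the 16 deposited libraries, 4 from Ovx mice given AngII (Ovx + AngII) and 4 from Ovx mice without it. All 8 libraries came from C57BL6/J females aged 24 months whose ovaries had been removed at 12 months of age, so the loss of the ovaries is shared by both groups and is not compared. The Ovx + AngII mice received AngII for 4 weeks from an osmotic minipump under the skin. Mice without AngII carried no pump filled with vehicle, so the pump and the peptide cannot be told apart. The other 8 libraries came from mice of the same age that kept their ovaries, without (Ctrl) or with AngII, and they enter the filter on low values and the estimate of the spread, so they bear on the calls, besides giving the response of intact mice. The LA was extracted whole, and nothing in the labels says beyond the sample numbers that each library was a separate animal, so the p-values measure the spread between these samples.

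AngII is the effector peptide of the renin-angiotensin system. Through the type 1 receptor it constricts arteries and raises blood pressure, and it acts directly on fibroblasts and on cardiac and smooth muscle cells. The LA has a thin wall that stretches when the left ventricle becomes stiff or overloaded, and its muscle cells secrete natriuretic peptides in response. Atrial muscle under load is known to switch on genes of the fetal heart, while fibroblasts lay down collagen, which slows conduction and is associated with atrial fibrillation.

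Values are normalised read counts, that is read counts the authors divided by a size factor for each library. They summed to 17598222 to 18985762 per library, and the steps between low values implied 15988922 to 22740699 reads. Between 16157 and 16475 genes were above 0, haemoglobin genes held 0.0365% to 0.0888% of the total, and each library correlated with the others of the same group at a mean r of 0.975 to 0.980. The defining genes of atrial muscle were high in every library: Myl7, the atrial regulatory light chain, was at 78607, 81531, 74966 and 76176 with AngII and 107726, 104838, 104471 and 98913 without, whereas the ventricular light chain Myl2 stayed between 0.949 and 14.9. Tests covered the 14273 genes whose mean over the 16 libraries was 10 or more, on the scale log2(value + 1), on which changes of genes near 0 are understated. A gene was called when its adjusted p (limma, Benjamini-Hochberg over all genes tested) was at most 0.05 and its log2 fold change at least 1 in size. Fold changes are given as log2(Ovx + AngII) minus log2(Ovx) ± SE, with 4 libraries per group, and a value in parentheses after a gene is this log2 fold change. Since whole tissue was measured, fewer cells of a type and less RNA per cell cannot be told apart.

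AngII was followed by a broad change in the LA transcriptome of Ovx mice. In all, 333 genes were called, which is 2.33% of the genes tested. Of these, 185 were higher with AngII (1.30%) and 148 lower (1.04%). By the adjusted p alone 1459 genes (10.2%) differed, of which 840 rose (5.89%) and 619 fell (4.34%), and the median over all genes was -0.01. The 4 values of a group did not overlap those of the other for 21.8% of genes, 11.6% higher and 10.2% lower with AngII. The balance turned on values scaled to equal totals (162 higher, 174 lower) and with array weights (224 higher, 233 lower). The libraries of a group did not differ equally from the other group: Ovx + AngII replicate 3 was the highest of its group for 111 of the 185 genes called higher and the lowest for 68 of the 148 called lower. Without it 209 genes were called, without Ovx replicate 2 231, and between 255 and 380 without any other library.

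**Figure D1:**
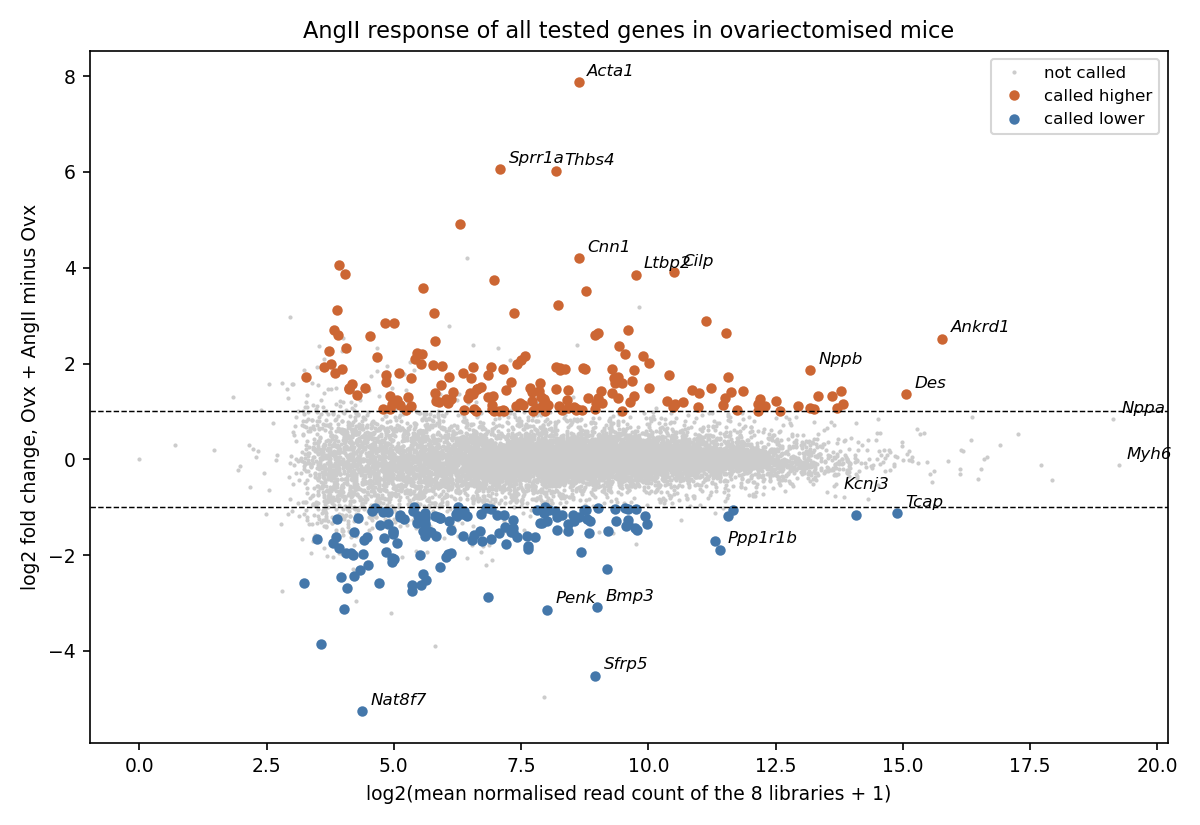
Each point is a tested gene, with its mean level over the 8 libraries on the x axis (log2 of the normalised read count + 1) and its log2 fold change with AngII in Ovx mice on the y axis. Called genes are coloured (185 higher, 148 lower), the dashed lines mark a log2 fold change of 1 in size, and called genes range from rare transcripts to Ankrd1.

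Many genes that cardiomyocytes express under load rose. Of 21 tested members of a list of cardiomyocyte stress and fetal genes, 16 rose and 0 fell by the adjusted p, 8 were called, and the median log2 fold change was 0.84. Between 13 and 17 rose with 1 library left out. The largest change of all was in Acta1 (chromosome 8, 123891758 to 123894775 of GRCm38), the skeletal alpha-actin that the fetal heart expresses. It was at 5.75, 0, 3.78 and 0.907 in Ovx replicates 1 to 4 and at 339, 623, 1669 and 520.0 in Ovx + AngII replicates 1 to 4. Acta1 was thus near 0 in every Ovx library and at 339 or above in every library with AngII. Its log2 fold change was 7.87 ± 0.97 (adjusted p = 0.000231), and 6.51 with a pseudocount of 5 in place of 1, since it depends on the constant added to values near 0. Reads of Acta1 can be shared with the other actins, whose sequences are nearly the same.

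Sprr1a, a small proline-rich protein that stressed cardiomyocytes express, followed the same pattern. Its values were 3.48, 1.96, 0 and 6.32 in Ovx and 251, 56.6, 509 and 258 in Ovx + AngII mice, with the lowest treated library still far above the highest untreated library. The log2 fold change was 6.06 ± 1.02 (adjusted p = 0.00202), or 4.82 with a pseudocount of 5. Dio2, the deiodinase that activates thyroid hormone, was at 124, 49.9, 71.5 and 42.3 in Ovx and 493, 1026, 1104 and 600.2 with AngII. It rose by 3.51 ± 0.53 (adjusted p = 0.00094), and its groups did not overlap either.

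Of 2 ankyrin repeat proteins that sit on titin and respond to stretch, Ankrd23 rose by 2.63 ± 0.34 (adjusted p = 0.0003) and Ankrd1 by 2.52 ± 0.26 (adjusted p = 8.2e-05). Ankrd1 was an abundant transcript already without AngII, at 22629, 13069.8, 15563 and 16316, and reached 91724, 95351, 104581 and 88197. No treated library came near the untreated range. Hspb1, a small heat shock protein that protects the cytoskeleton, rose by 1.12 ± 0.17 (adjusted p = 0.00094).

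The natriuretic peptides, which lower blood volume and are the endocrine product of the atria, rose to different extents. Nppb, the B-type peptide, was at 3854, 3818, 3865 and 4469 in Ovx and 16309, 15195, 14059 and 12890.1 in Ovx + AngII mice. Its log2 fold change was 1.87 ± 0.28 (adjusted p = 0.000925). Nppa, the A-type peptide and among the most abundant transcripts of the LA, was at 463516, 390264, 426137 and 362896 in Ovx and 779533, 681130.0, 764638 and 705239 with AngII, a rise of 0.84 ± 0.24 (adjusted p = 0.0332) that did not reach the fold threshold. Nppa did not pass the adjusted p without Ctrl replicate 2 or 3, Ovx replicate 1, 2, 3 or 4 or Ovx + AngII replicate 1, 3 or 4 (up to 0.125). The slow myosin heavy chain Myh7, the main isoform of the fetal mouse heart, was at 149, 117, 114 and 104 and rose to 540.3, 211, 526 and 699 (log2 fold change 1.91 ± 0.40, adjusted p = 0.00753). The fast adult isoform Myh6 had a log2 fold change of -0.12 ± 0.26 (adjusted p = 0.821) and overlapped between the groups.

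**Figure D2:**
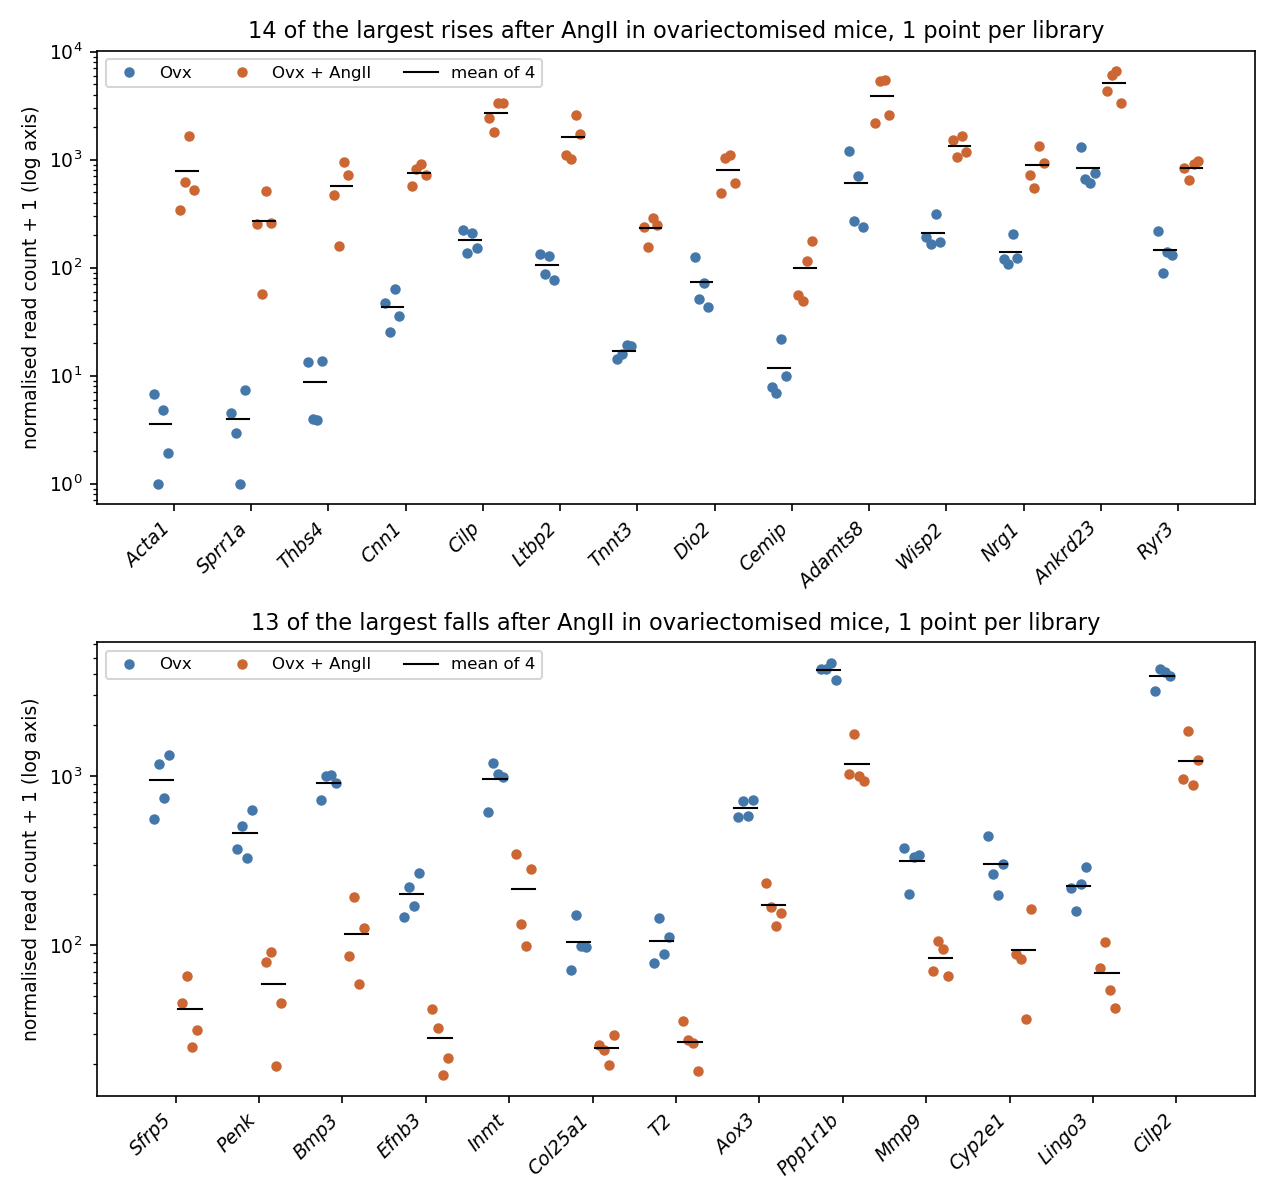
Normalised read counts + 1 (log axis) of 14 of the 15 largest rises (upper panel) and 13 of the 15 largest falls (lower panel) among genes that were called, had a mean of 50 or more and did not overlap between groups, 1 point per library and a line at the mean of 4. Thbs4 lies at 2.85 to 12.7 in the Ovx and 156 to 956 in the Ovx + AngII libraries, and Sfrp5 at 556 to 1330.2 and 24.1 to 64.7.

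The 250 bases before the RefSeq start site are shown for 5 of the genes that rose, because several carry known muscle promoter elements (GRCm38.p6, 5′ to 3′ on the gene's strand, credited to RefSeq). Capitals mark matches to the MCAT element CATTCC on either strand, to the CArG box, to the AP-1 element TGANTCA or to TATAAA, the TATA element.
Acta1 (chr8:123894776-123895025, minus strand): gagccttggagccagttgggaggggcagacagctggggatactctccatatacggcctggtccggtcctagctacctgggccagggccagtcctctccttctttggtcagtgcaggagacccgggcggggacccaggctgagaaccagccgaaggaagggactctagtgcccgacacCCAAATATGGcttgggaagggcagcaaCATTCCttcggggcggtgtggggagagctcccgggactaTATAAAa
Ankrd1 (chr19:36119845-36120094, minus strand): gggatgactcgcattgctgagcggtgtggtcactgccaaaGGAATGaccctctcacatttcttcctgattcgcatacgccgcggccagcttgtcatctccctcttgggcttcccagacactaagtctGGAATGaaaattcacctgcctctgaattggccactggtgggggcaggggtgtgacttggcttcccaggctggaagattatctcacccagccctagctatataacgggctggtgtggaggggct
Sprr1a (chr3:92485882-92486131, minus strand): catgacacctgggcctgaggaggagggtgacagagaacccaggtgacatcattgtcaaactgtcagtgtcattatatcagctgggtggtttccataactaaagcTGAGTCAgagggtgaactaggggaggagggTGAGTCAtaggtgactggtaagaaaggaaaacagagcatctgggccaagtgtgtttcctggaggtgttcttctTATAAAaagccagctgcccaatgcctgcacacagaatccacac
Myh7 (chr14:54994627-54994876, minus strand): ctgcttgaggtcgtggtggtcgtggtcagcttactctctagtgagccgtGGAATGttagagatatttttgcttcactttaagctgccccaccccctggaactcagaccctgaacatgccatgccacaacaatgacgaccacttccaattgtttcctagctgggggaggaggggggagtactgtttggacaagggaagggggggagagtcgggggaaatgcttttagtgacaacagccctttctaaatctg
Thbs4 (chr13:92794819-92795068, minus strand): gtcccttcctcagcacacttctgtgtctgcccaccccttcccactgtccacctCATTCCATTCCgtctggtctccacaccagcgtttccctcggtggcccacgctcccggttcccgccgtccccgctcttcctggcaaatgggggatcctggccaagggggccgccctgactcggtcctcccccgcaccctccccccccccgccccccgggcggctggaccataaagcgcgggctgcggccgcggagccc

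Acta1 held a CArG box at -73 to -64 and an MCAT element at -46 to -41 from the start site. Ankrd1 held MCAT elements at -210 to -205 and -123 to -118, and Myh7 held 1 at -201 to -196. In Thbs4, 2 MCAT elements overlapped by a base at -197 to -187. Sprr1a held AP-1 elements at -146 to -140 and -116 to -110. A promoter of this length was found for 133 of the 185 genes called higher, 104 of the 148 called lower and 11297 of all 14273. The MCAT element was present in 24.1% of the promoters of genes called higher, 16.3% of those called lower and 10.7% of all. The CArG box was present in 4.51%, 1.92% and 1.19%, AP-1 in 11.3%, 6.73% and 4.37%, the TATA element in 13.5%, 8.65% and 6.62%, and the E-box CACGTG in 6.77%, 6.73% and 8.25%. These shares are a description of letters in a window, and binding was not measured.

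Some sarcomere genes changed and most did not pass the test. Of 32 tested, 7 rose and 2 fell by the adjusted p, beside 5.89% and 4.34% of all genes, with a median of 0.18. With 1 library left out 4 to 9 rose, 4 without Ovx + AngII replicate 3. Tnnt3, the troponin T of fast skeletal muscle, was at 13.3, 14.8, 18.4 and 17.7 in Ovx and 239, 153, 288 and 249 with AngII (log2 fold change 3.75 ± 0.48, adjusted p = 0.000288). Myl1, a light chain of fast skeletal muscle, was at 7261, 7310.3, 5652 and 5145 in Ovx and 11598, 15431, 14319 and 11025 with AngII (1.05 ± 0.24, adjusted p = 0.0124). Both were higher in every treated library than in any untreated library. Myl9, the smooth muscle regulatory light chain, rose by 1.12 ± 0.31 (adjusted p = 0.0298), but Ovx replicate 1 at 6001 lay above Ovx + AngII replicate 1 at 5213. Myl9 did not pass the adjusted p without Ovx replicate 2 or 4 or Ovx + AngII replicate 2, 3 or 4 (up to 0.0979). Actn2, the alpha-actinin of the Z-disc, and Mybpc3, the cardiac myosin binding protein C, rose by 0.52 ± 0.12 and 0.55 ± 0.13, below the fold threshold. Mybpc3 did not pass the adjusted p without Ovx + AngII replicate 3 (0.0513). Actc1, the cardiac actin, had a log2 fold change of 0.53 ± 0.18 (adjusted p = 0.0685).

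The 2 sarcomere genes that fell were Tmod4, a tropomodulin that caps thin filaments (-1.49 ± 0.27, adjusted p = 0.00352), and Myom3, an M-band protein (-0.82 ± 0.21, adjusted p = 0.0192). Myom3 did not pass the adjusted p without Ovx replicate 2 or Ovx + AngII replicate 1 or 3 (up to 0.0617). Among 26 Z-disc and intercalated disc genes, 5 rose and 3 fell, beside 5.89% and 4.34% of all genes, and 1 to 4 fell with 1 library left out. Des, the intermediate filament of muscle, was at 21601, 18565, 19445 and 16916 in Ovx and 45835, 47078, 61683 and 42428 in Ovx + AngII mice, without overlap (1.35 ± 0.20, adjusted p = 0.000726). Pdlim3, a Z-disc adaptor, rose by 1.15 ± 0.18. Tcap, the cap of titin at the Z-disc, went the other way, from 36076, 46630.2, 44582 and 37607 in Ovx to 19100.2, 21403, 13544 and 22840.0 with AngII (-1.12 ± 0.32, adjusted p = 0.0346). Tcap did not pass the adjusted p without Ovx replicate 1, 2, 3 or 4 or Ovx + AngII replicate 1 or 3 (up to 0.122). The desmosomal cadherin Dsg2 (-0.58 ± 0.09) and the talin Tln2 (-0.29 ± 0.09) also fell. Tln2 did not pass the adjusted p without AngII replicate 2 or 3, Ovx replicate 1, 2, 3 or 4 or Ovx + AngII replicate 1, 2, 3 or 4 (up to 0.114). Xirp2, an intercalated disc protein, spread widely with AngII at 3603, 14949, 14659.8 and 7993 against 4254, 4918, 3975 and 6735, and did not pass the test (0.87 ± 0.35, adjusted p = 0.132).

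Many extracellular matrix genes rose as well. Of 20 tested collagens, 14 rose and 1 fell by the adjusted p, 7 were called higher, and the median log2 fold change was 0.74. Between 13 and 16 rose with 1 library left out. The summed collagen signal was 37935 to 42685 in Ovx and 65661 to 87317 in Ovx + AngII libraries. Among fibrillar collagens, Col1a1 was at 3681, 3182, 3250.1 and 3709 in Ovx and 6690.2, 7248, 9991 and 8515 with AngII (1.22 ± 0.22, adjusted p = 0.00307), and Col3a1 at 10322, 7827, 8226 and 9686 in Ovx and 17335, 19628, 22983 and 19757 with AngII (1.15 ± 0.23, adjusted p = 0.00513). Neither overlapped between the groups, and Ovx + AngII replicate 3 was the highest in both. Col1a2 and Col5a2, which join them in the fibril, rose by 1.11 ± 0.17 and 1.14 ± 0.18.

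Among the collagens that passed the adjusted p, those that rose most were not fibrillar. The highest log2 fold change in the list, 2.53, belonged to a member that did not pass. Col12a1, which coats fibrils and is induced by tension, rose from 55.4, 82.5, 57.5 and 57.4 in Ovx to 156, 185, 490.0 and 273 with AngII (1.99 ± 0.32, adjusted p = 0.00153). The short-chain collagens Col8a2 and Col8a1 rose by 1.81 ± 0.39 (adjusted p = 0.00835) and 1.76 ± 0.28 (adjusted p = 0.00136). Col4a1 and Col4a2, the main chains of basement membrane collagen, rose by 1.42 ± 0.21 and 1.32 ± 0.21. The collagen that fell was Col25a1, a transmembrane collagen, which went from 70.8, 149, 98.7 and 96.8 in Ovx to 24.9, 23.3, 18.6 and 28.4 with AngII (-2.05 ± 0.45, adjusted p = 0.0101). Col15a1 had a log2 fold change of 0.39 ± 0.14 (adjusted p = 0.0846).

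Of 20 basement membrane genes, 9 rose and 1 fell, with a median of 0.36. This count fell to 4 without Ovx replicate 3 or Ovx + AngII replicate 3 and to 5 without Ovx replicate 2. The member that fell was Lamb3, the beta chain of laminin 332, at 1324, 1585, 1358 and 1187 in Ovx and 557, 749, 517 and 590.4 with AngII (-1.18 ± 0.23, adjusted p = 0.00433). Its groups did not overlap.

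Elastic fibre and collagen crosslinking genes also rose, 15 of 28 against 1 that fell, with a median of 0.48. Between 10 and 15 rose with 1 library left out. Ltbp2 (chromosome 12, 84783212 to 84876558), which binds fibrillin microfibrils, was at 134, 87.1, 127 and 75.8 in Ovx and 1108, 1011, 2609.7 and 1733 in Ovx + AngII mice (3.85 ± 0.44, adjusted p = 0.000113). Eln, which encodes elastin itself, was at 1959, 1138, 984 and 1611 in Ovx and 3228, 4520.0, 6272 and 4427 with AngII (1.71 ± 0.32, adjusted p = 0.00374). Every treated library lay above every untreated one for both genes. The crosslinking enzyme Lox was at 176, 127, 128 and 90.2 in Ovx and 413, 374, 719 and 427 with AngII (1.87 ± 0.43, adjusted p = 0.0117), with Ovx + AngII replicate 3 well above the others, and Loxl2 rose by 1.28 ± 0.23. The microfibril proteins Mfap4, Mfap5 and Fbn1 rose by 1.38 ± 0.20, 1.20 ± 0.15 and 1.16 ± 0.28. Fbn1 did not pass the adjusted p without Ovx replicate 2 or Ovx + AngII replicate 3 (up to 0.0617). Emilin2 was the member that fell (-0.96 ± 0.20, adjusted p = 0.0066).

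Matricellular proteins, which signal from the matrix to cells rather than bearing load, held the largest matrix changes. Of 21 tested, 8 rose and 1 fell, 7 were called higher, the median was 0.47, and 7 to 9 rose with 1 library left out. Thbs4 (chromosome 13, 92751586 to 92794818), a thrombospondin of tendon and of the stressed heart, was at 12.5, 2.94, 2.85 and 12.7 in Ovx and 466, 156, 956 and 713 in Ovx + AngII mice. Its log2 fold change was 6.02 ± 0.64 (adjusted p = 8.33e-05), or 5.34 with a pseudocount of 5. Cilp (chromosome 9, 65265180 to 65280614), a secreted protein of cartilage and of activated cardiac fibroblasts, was at 223, 137, 207 and 150.5 in Ovx and 2428, 1788, 3317 and 3347 with AngII (3.90 ± 0.42, adjusted p = 8.33e-05). Both genes separated the groups completely. Cilp2, a relative of Cilp, moved the other way, from 3175, 4257, 4130.3 and 3900.1 in Ovx to 956, 1831, 879 and 1233 with AngII (-1.71 ± 0.35, adjusted p = 0.0066).

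Among CCN proteins, Wisp2 (Ccn5) was at 191, 166, 311 and 170.0 in Ovx and 1503, 1061, 1643 and 1169 with AngII (2.70 ± 0.28, adjusted p = 8.2e-05), and Ctgf (Ccn2), a mediator of fibrosis, was at 6120.0, 5582, 9264 and 7381 in Ovx and 16969.7, 16020.3, 24585 and 13418 with AngII (1.32 ± 0.28, adjusted p = 0.00859). Neither gene overlapped between the groups. Thbs1, an activator of latent TGF-beta, was at 239, 151, 220.1 and 126 in Ovx and 566, 775, 2851 and 573 with AngII (2.36 ± 0.55, adjusted p = 0.0131), with Ovx + AngII replicate 3 far above the other 3. Tnc, the tenascin of wounds and developing tissue, rose by 2.19 ± 0.59 (adjusted p = 0.0269). Tnc did not pass the adjusted p without Ovx replicate 2, 3 or 4 or Ovx + AngII replicate 2, 3 or 4 (up to 0.0922). Sparc and Fn1, a collagen-binding protein and fibronectin, rose by 1.07 ± 0.17 and 0.89 ± 0.14. Postn, the periostin of myofibroblasts, had a log2 fold change of 0.69 ± 0.34 (adjusted p = 0.219).

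Of 34 matrix proteases and their inhibitors, 6 rose and 1 fell, beside 5.89% and 4.34% of all genes, with 10 that rose without Ctrl replicate 4. Adamts8, a secreted protease with thrombospondin repeats, was at 1194, 269, 705 and 239 in Ovx and 2195, 5311, 5461 and 2587 with AngII (2.89 ± 0.48, adjusted p = 0.00188). Adamtsl2, which lacks protease activity and binds microfibrils, rose by 1.70 ± 0.27, the gelatinase Mmp2 by 1.27 ± 0.21 and the inhibitor Timp1 by 1.30 ± 0.28. The gelatinase Mmp9 was the member that fell, from 376, 201, 334 and 339 in Ovx to 69.7, 105, 94.8 and 65.4 with AngII (-1.87 ± 0.28, adjusted p = 0.000966), with no overlap. Mmp9 was also the 1 of 5 tested neutrophil markers that fell, while S100a8, S100a9, Csf3r and Lcn2 did not pass the test. The summed level of the neutrophil markers, Mmp9 included, was 314 to 508 in Ovx and 159 to 248 in Ovx + AngII libraries. Mmp9 made up most of this sum in every Ovx library, so the sum largely restates its fall. The mean log2 level of the tested markers overlapped, at 4.54 to 5.36 in Ovx and 4.48 to 4.98 in Ovx + AngII libraries.

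Of 17 small leucine-rich proteoglycans and hyaluronan genes, 4 rose and 1 fell. Cemip, which takes hyaluronan apart, was at 6.78, 5.87, 21.0 and 9.03 in Ovx and 55.4, 48.5, 114 and 174 with AngII (3.05 ± 0.52, adjusted p = 0.00202). Aspn, Bgn and Prelp rose by 1.29 ± 0.21, 0.84 ± 0.14 and 0.68 ± 0.11, and Podn fell (-0.38 ± 0.11). Podn did not pass the adjusted p without AngII replicate 3, Ovx replicate 1, 2 or 3 or Ovx + AngII replicate 1, 3 or 4 (up to 0.121). Itgbl1, an integrin-like secreted protein, rose by 1.87 ± 0.18 (adjusted p = 8.18e-05), whereas Itgb6, an epithelial integrin chain that activates TGF-beta, fell (-1.54 ± 0.31, adjusted p = 0.00628). Among 32 integrin and mechanosensing genes, 13 rose and 1 fell, and 9 to 15 rose with 1 library left out.

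**Figure D3:**
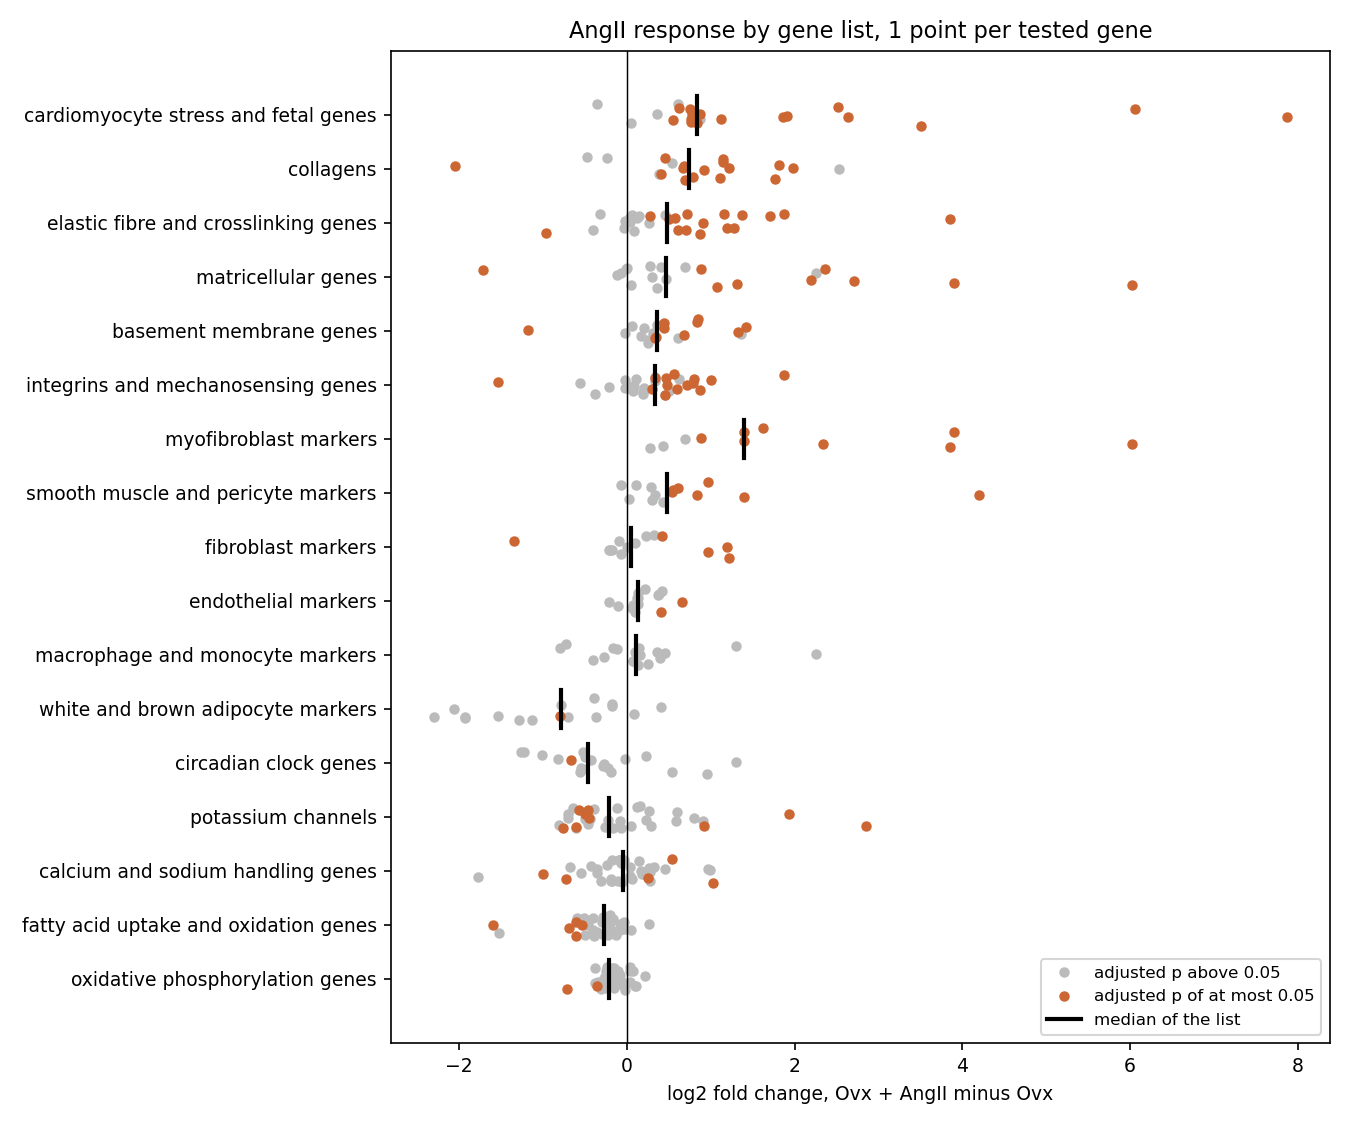
Log2 fold change with AngII in Ovx mice for each tested gene of 17 lists, coloured by the adjusted p, with a bar at the median of each list. The medians of stress and fetal genes (0.84), collagens (0.74) and myofibroblast markers (1.40) lie to the right of 0, and those of fatty acid genes (-0.27), oxidative phosphorylation genes (-0.21) and adipocyte markers (-0.79) to the left.

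Most markers of activated fibroblasts rose. Of 11 myofibroblast markers, 8 rose and 0 fell by the adjusted p, with a median of 1.40, and 7 to 9 rose with 1 library left out. Ltbp2, Thbs4 and Cilp belong both to this list and to the matrix lists. Cthrc1, a collagen-processing marker of scar fibroblasts, was at 5.63, 1.94, 3.84 and 4.54 in Ovx and 23.6, 10.01, 21.1 and 55.3 with AngII (2.33 ± 0.51, adjusted p = 0.00942). Meox1, a transcription factor of activated fibroblasts, rose by 1.63 ± 0.32, Tagln by 1.39 ± 0.31, Ddah1 by 1.40 ± 0.23 and Fap by 0.88 ± 0.22. Fap did not pass the adjusted p without Ovx replicate 1, 2 or 3 or Ovx + AngII replicate 1 or 3 (up to 0.074). Acta2, the smooth muscle actin that defines myofibroblasts, was at 1025, 621, 722 and 727 in Ovx and 949, 995, 1082 and 1069 with AngII, with overlap (0.43 ± 0.15, adjusted p = 0.0871). The summed level of the 11 markers was 4962 to 5344 in Ovx and 10544 to 17083 in Ovx + AngII libraries.

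Markers of fibroblasts as a whole moved less. Of 14, 4 rose and 1 fell, and their median of 0.05 lay close to that of all genes. Pi16 and Pcolce rose by 0.97 ± 0.11 and 0.42 ± 0.08 beside Col1a1 and Mfap5, and Scara5 fell (-1.35 ± 0.38, adjusted p = 0.0331). Scara5 did not pass the adjusted p without Ovx replicate 1, 2, 3 or 4 or Ovx + AngII replicate 1, 3 or 4 (up to 0.109). Their summed level was 121691 to 138600 in Ovx and 110720 to 149680 in Ovx + AngII libraries, so the ranges overlapped. The part that the number of fibroblasts or myofibroblasts had in the rise of the matrix genes was not tested.

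Of 14 smooth muscle and pericyte markers, 7 rose and 0 fell, with a median of 0.48, and 5 to 8 rose with 1 library left out. Cnn1, a calponin of differentiated smooth muscle, was at 45.8, 24.3, 62.8 and 35.02 in Ovx and 574, 824, 909.9 and 713 in Ovx + AngII mice (4.20 ± 0.60, adjusted p = 0.000674). Every treated library was far above every untreated one. The pericyte markers Cspg4 and Pdgfrb rose by 0.97 ± 0.13 and 0.62 ± 0.13. The summed level of the markers was 17852 to 19976 and 24833 to 27595.

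Of the other cell types, few or no markers passed the adjusted p. Of 15 endothelial markers, 2 rose, Ptprb (0.66 ± 0.09) and Cdh5 (0.41 ± 0.11), beside 5.89% of all genes. Cdh5 did not pass the adjusted p without Ovx replicate 2, 3 or 4 or Ovx + AngII replicate 1 or 3 (up to 0.0945). None of 19 macrophage and monocyte, 15 lymphocyte or 12 epicardial markers passed the adjusted p (limma). At an unadjusted p under 0.05 there were 2, 0 and 1, against 3545 of all 14273 genes. The summed macrophage level was 17428 to 20521 in Ovx and 17818 to 23089 in Ovx + AngII libraries. The summed level of 10 cardiomyocyte defining genes overlapped as well, at 1151364 to 1320429 and 1141054 to 1413238. Adipocyte markers were lower in sum, at 17593 to 33279 in Ovx and 13609 to 16950 with AngII without overlap, with a median of -0.79. Ovx replicate 1 held the 33279, against 17593 to 20172 in the other Ovx libraries. The mean log2 level of the tested markers did overlap, at 7.77 to 9.61 in Ovx and 6.48 to 8.43 with AngII. Only Lipe, the hormone-sensitive lipase, passed the test for a member (-0.80 ± 0.21, adjusted p = 0.0266). Lipe did not pass the adjusted p without Ovx replicate 1, 2 or 3 or Ovx + AngII replicate 2 or 3 (up to 0.0902). Of 3 tested lung markers 0 passed (limma), with 2 lower at an unadjusted p under 0.05, a median of -0.46 and sums of all 9 markers of 3928 to 5431 in Ovx and 2961 to 3679 with AngII. Of 7 erythroid genes 0 passed and 0 had an unadjusted p under 0.05, with a median of 0.63 and sums of 6599.9 to 14526 and 11214 to 17287, which overlapped. The part of fat, lung or blood in the genes that changed was not tested.

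**Figure D4:**
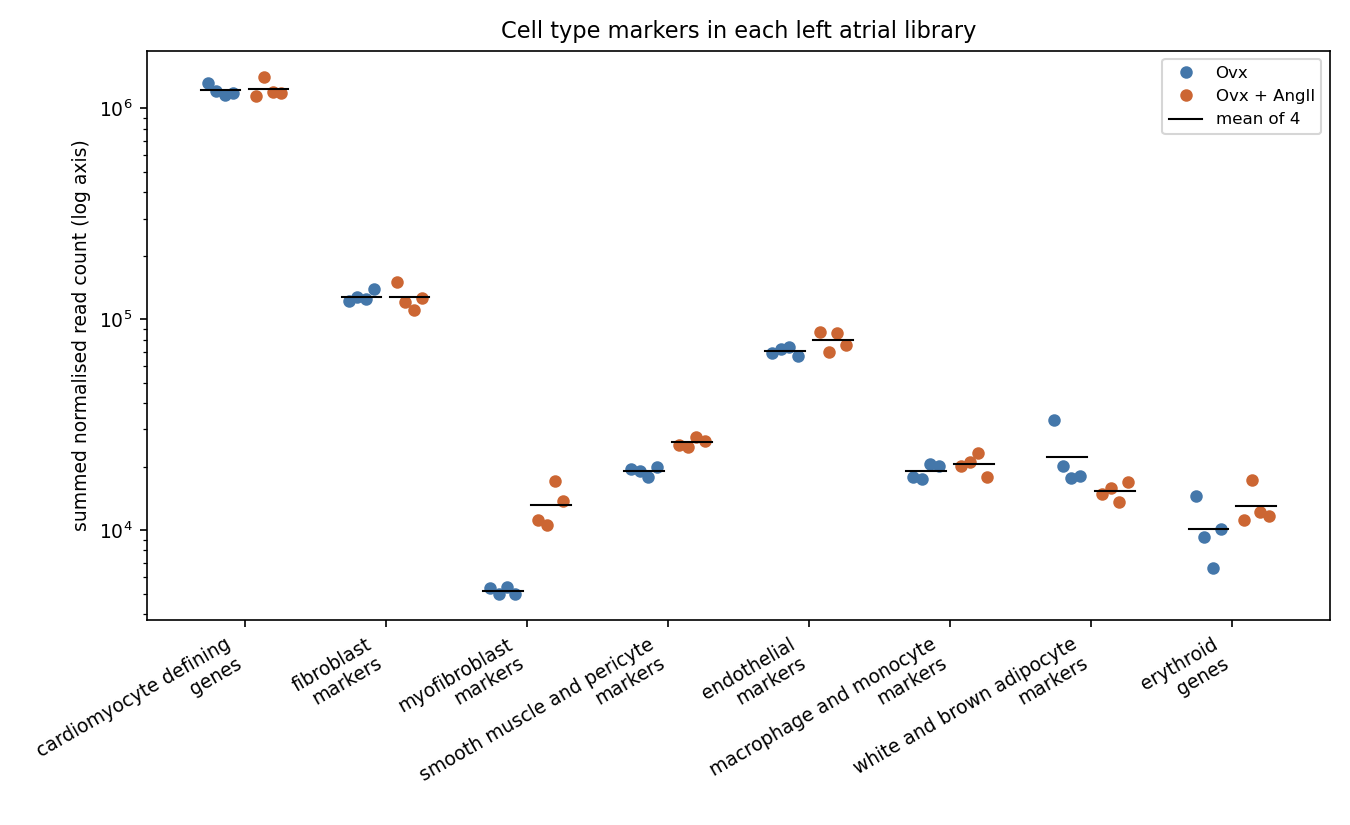
Summed normalised read counts (log axis) of 8 sets of cell type markers, 1 point per library with a line at the mean of 4. The myofibroblast sum lies at 4962 to 5344 in Ovx and 10544 to 17083 in Ovx + AngII libraries, while the cardiomyocyte, fibroblast and macrophage sums overlap between the groups.

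Secreted regulators of Wnt signalling moved in opposite directions. Sfrp5 (chromosome 19, 42197971 to 42202252), a secreted Wnt antagonist of the venous pole of the heart and of fat tissue, was at 556, 1173, 740.2 and 1330.2 in Ovx and 44.6, 64.7, 24.1 and 30.6 in Ovx + AngII mice (-4.51 ± 0.81, adjusted p = 0.00304). Rspo3, which strengthens Wnt signals, fell from 37.6, 22.8, 37.9 and 43.3 in Ovx to 7.45, 10.7, 2.37 and 9.33 with AngII (-2.21 ± 0.44, adjusted p = 0.00521). In both genes every treated library lay below every untreated one. Of 24 Wnt genes, these 2 fell and 6 rose, beside 4.34% and 5.89% of all genes, with 3 that rose without Ovx replicate 2 or Ovx + AngII replicate 1. Frzb and Sfrp2, antagonists of the same family as Sfrp5, rose by 1.91 ± 0.30 and 1.59 ± 0.39, the antagonist Sost by 1.48 ± 0.38, and Dkk3 by 0.40 ± 0.11. Sfrp2 did not pass the adjusted p without Ovx replicate 2 or Ovx + AngII replicate 1 or 4 (up to 0.0536). Sost did not pass the adjusted p without Ovx replicate 2, 3 or 4 or Ovx + AngII replicate 1 or 3 (up to 0.0774). Dkk3 did not pass the adjusted p without Ovx replicate 1, 2 or 4 or Ovx + AngII replicate 1, 3 or 4 (up to 0.0822).

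Among 38 TGF-beta, activin and BMP genes, 7 rose and 2 fell, beside 5.89% and 4.34% of all genes. With 1 library left out 5 to 11 rose, 11 without Ctrl replicate 4. Bmp3 (chromosome 5, 98854415 to 98884053), a BMP family member that antagonises the others, was at 717, 999, 1009 and 903 in Ovx and 85.4, 192, 58.0 and 126 in Ovx + AngII mice (-3.09 ± 0.43, adjusted p = 0.000586). Its groups were far apart. Bmp6, a BMP ligand, rose by 1.23 ± 0.24, and Fstl3, which binds activins, by 1.43 ± 0.17. The ligands Tgfb2 and Tgfb3 rose by 0.88 ± 0.19 and 0.58 ± 0.12. The co-receptor Tgfbr3 was the other member that fell (-0.34 ± 0.10, adjusted p = 0.049). Tgfbr3 did not pass the adjusted p without Ctrl replicate 2, AngII replicate 1, 2, 3 or 4, Ovx replicate 2, 3 or 4 or Ovx + AngII replicate 2, 3 or 4 (up to 0.164).

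Several growth factors and peptides changed outside these families. Nrg1, a ligand of ErbB receptors on cardiomyocytes, was at 118, 106, 203 and 123 in Ovx and 715, 547, 1348 and 934 with AngII (2.65 ± 0.53, adjusted p = 0.00557). Its groups did not overlap. Edn1, the precursor of the vasoconstrictor endothelin-1, was at 61.6, 71.4, 83.9 and 93.8 in Ovx and 198, 248, 209 and 197 with AngII (1.46 ± 0.35, adjusted p = 0.0156), and Pdgfc, a mitogen of fibroblasts, rose by 1.28 ± 0.16. Penk (chromosome 4, 4133536 to 4138815), the enkephalin precursor, fell from 372, 509, 328 and 625 in Ovx to 78.5, 90.4, 18.5 and 44.9 with AngII (-3.14 ± 0.68, adjusted p = 0.00909). Efnb3, a membrane-bound ephrin, fell from 147, 221, 169 and 268 in Ovx to 41.4, 31.6, 16.1 and 20.8 with AngII (-2.88 ± 0.52, adjusted p = 0.00313). For Penk and Efnb3 too, no treated library reached the untreated range.

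Of 14 renin-angiotensin and steroid receptor genes, which include the pathway that AngII itself engages, 1 rose and 1 fell by the adjusted p, near the 5.89% and 4.34% of all genes. Ace, which makes AngII, was at 2382, 2171, 2394 and 2006 in Ovx and 4384, 4425, 5834 and 3887 in Ovx + AngII mice (1.04 ± 0.17, adjusted p = 0.00187). Agtr1a, the type 1 receptor, was at 320.2, 363, 354 and 399 in Ovx and 174, 220.2, 165 and 202 with AngII (-0.92 ± 0.19, adjusted p = 0.00753), just short of the fold threshold and without overlap. The type 2 receptor Agtr2 was too low to be tested, at 0 in every Ovx + AngII library and at most 1.13 in Ovx libraries. The oestrogen receptor Esr1 was at 149, 98.7, 147 and 153 in Ovx and 175, 104, 119 and 140.0 with AngII, with a log2 fold change of -0.03 ± 0.28 (adjusted p = 0.959) whose sign changed when some libraries were left out. Nox4, an oxidase that makes hydrogen peroxide in fibroblasts and muscle, rose by 1.30 ± 0.29 (adjusted p = 0.0101).

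Some potassium channels, which set the resting potential and end the action potential, changed, in both directions. Of 36 tested, 6 fell and 3 rose, beside 4.34% and 5.89% of all genes, with a median of -0.22. The count that rose was near the share of all genes. The count that rose was 1 without Ovx replicate 4 or Ovx + AngII replicate 3 and 6 without Ctrl replicate 4. Kcnj3, a subunit of the acetylcholine-gated channel of the atria, was at 15915, 16344, 16799 and 16470.4 in Ovx and 9142, 10900.0, 9073 and 9766 in Ovx + AngII mice (-0.76 ± 0.10, adjusted p = 0.000528). This was a narrow spread on both sides with a clear gap, although the change was under the fold threshold. The other 5 that fell were Kcnh2 (-0.60 ± 0.17) and Kcnq1 (-0.57 ± 0.15) of the delayed rectifiers, Kcnj2 (-0.49 ± 0.13) of the inward rectifier, the background channel Kcnk3 (-0.46 ± 0.14) and Kcnd2 (-0.45 ± 0.14) of the transient outward current. The count of channels that fell was 1 without Ovx replicate 2 or Ovx + AngII replicate 3 and reached 9 with another library left out. Kcnh2 did not pass the adjusted p without Ovx replicate 1, 2, 3 or 4 or Ovx + AngII replicate 1, 3 or 4 (up to 0.125). Kcnq1 did not pass the adjusted p without Ovx replicate 2, 3 or 4 or Ovx + AngII replicate 1 or 3 (up to 0.0737). Kcnj2 did not pass the adjusted p without Ovx replicate 2 or Ovx + AngII replicate 3 (up to 0.0767). Kcnk3 did not pass the adjusted p without AngII replicate 2, Ovx replicate 1, 2, 3 or 4 or Ovx + AngII replicate 1, 2, 3 or 4 (up to 0.136). Kcnd2 did not pass the adjusted p without Ctrl replicate 1, AngII replicate 3, Ovx replicate 1, 2, 3 or 4 or Ovx + AngII replicate 1, 2, 3 or 4 (up to 0.127).

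The 3 potassium channel genes that rose were of low or moderate level. Kcnc1, a fast delayed rectifier of neurons, was at 12.6, 7.87, 4.74 and 1.82 in Ovx and 53.2, 50.7, 98.0 and 17.8 with AngII (2.85 ± 0.70, adjusted p = 0.0176), and Kcnj15 rose by 1.93 ± 0.42 (adjusted p = 0.00897). Kcnc1 did not pass the adjusted p without Ovx replicate 4 or Ovx + AngII replicate 3 (up to 0.0708). Kcna5, the ultrarapid delayed rectifier of the atria, rose by 0.92 ± 0.28 (adjusted p = 0.0443). Kcna5 did not pass the adjusted p without Ctrl replicate 1, AngII replicate 2 or 3, Ovx replicate 1, 2, 3 or 4 or Ovx + AngII replicate 1, 2, 3 or 4 (up to 0.127). Of 38 calcium and sodium handling genes, 3 rose and 2 fell, near the 10.2% of all genes that passed in either direction. With 1 library left out 0 to 4 rose, 0 without Ovx replicate 3, and 1 to 4 fell, 4 without AngII replicate 1. Among those that rose, Casq2, the calcium buffer of the sarcoplasmic reticulum, increased by 0.54 ± 0.13 and the L-type channel Cacna1c by 0.25 ± 0.08. Casq2 did not pass the adjusted p without Ovx replicate 3 (0.052). Cacna1c did not pass the adjusted p without Ctrl replicate 1 or 2, AngII replicate 2 or 4, Ovx replicate 1, 2, 3 or 4 or Ovx + AngII replicate 1, 2, 3 or 4 (up to 0.144). The skeletal sodium channel Scn4a (-0.99 ± 0.28) and the kinase Camk2a (-0.72 ± 0.15) fell. Scn4a did not pass the adjusted p without Ovx replicate 1, 2 or 3 or Ovx + AngII replicate 1, 3 or 4 (up to 0.0977). The calcium pump Atp2a2 (-0.43 ± 0.19, adjusted p = 0.17) and the release channel Ryr2 (-0.31 ± 0.15, adjusted p = 0.224) did not pass the test. Ryr3, a minor release channel of the heart, did not belong to this list. It was at 217, 88.7, 138 and 131 in Ovx and 838, 639.8, 914 and 960.3 with AngII (2.59 ± 0.36, adjusted p = 0.000598).

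Genes of fatty acid use were mostly lower, by small amounts. Of 35 tested, 33 had a log2 fold change below 0, 5 fell by the adjusted p and 0 rose, with a median of -0.27. Over all 14273 genes, 7379 lay below 0 and 4.34% fell by the adjusted p. Acot1, a thioesterase that releases fatty acids from coenzyme A, was at 134, 111, 148 and 93.3 in Ovx and 59.5, 26.4, 28.9 and 49.9 with AngII (-1.60 ± 0.31, adjusted p = 0.00513). Acot2 (-0.69 ± 0.16), the mitochondrial importer Cpt1a (-0.61 ± 0.17), the transporter Slc27a1 (-0.61 ± 0.15) and Mlycd (-0.53 ± 0.14), which lowers the inhibitor of that importer, fell by less than the fold threshold. The count that fell was 1 without Ovx + AngII replicate 3, lay between 1 and 12 over all libraries left out in turn, and was 13 on values scaled to equal totals. Acot2 did not pass the adjusted p without Ovx + AngII replicate 3 (0.0546). Cpt1a did not pass the adjusted p without Ovx replicate 1, 2 or 3 or Ovx + AngII replicate 1, 2 or 3 (up to 0.115). Slc27a1 did not pass the adjusted p without Ovx replicate 2 or 3 or Ovx + AngII replicate 3 (up to 0.0564). Mlycd did not pass the adjusted p without Ovx replicate 1, 2 or 3 or Ovx + AngII replicate 3 or 4 (up to 0.0893). Acot1 and Acot2 have near-identical sequences, so reads can be divided between them.

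Of 56 oxidative phosphorylation genes, 49 were below 0 with a median of -0.21, against 7379 of all 14273 genes. By the adjusted p 0 rose and 2 fell, near the 4.34% of all genes that fell. The 2 were Cox7a1 (-0.72 ± 0.20) and Sdhc (-0.36 ± 0.10). The count that fell was 0 to 9 with 1 library left out and 12 on values scaled to equal totals. Cox7a1 did not pass the adjusted p without Ovx replicate 1, 2 or 3 or Ovx + AngII replicate 1, 3 or 4 (up to 0.101). Sdhc did not pass the adjusted p without Ovx replicate 1, 2, 3 or 4 or Ovx + AngII replicate 1, 3 or 4 (up to 0.101). Of 30 genes of glycolysis and glucose uptake, 4 rose and 0 fell, namely Pfkp (0.52 ± 0.10), Pgam1 (0.50 ± 0.12), the lactate transporter Slc16a1 (0.41 ± 0.08) and Pgam2 (0.32 ± 0.10). The count was 2 without Ovx replicate 2 or 3 or Ovx + AngII replicate 3. Pgam1 did not pass the adjusted p without Ovx replicate 2 or 3 or Ovx + AngII replicate 3 (up to 0.0556). Pgam2 did not pass the adjusted p without Ctrl replicate 1 or 2, AngII replicate 2 or 4, Ovx replicate 1, 2, 3 or 4 or Ovx + AngII replicate 1, 2, 3 or 4 (up to 0.13). Pdk4, which closes glucose oxidation when fat is burnt, had a log2 fold change of -0.60 ± 0.40 (adjusted p = 0.387).

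Other large falls were of enzymes and signalling genes. Ppp1r1b, an inhibitor of protein phosphatase 1, was at 4254, 4302, 4645 and 3689 in Ovx and 1019, 1770.4, 999 and 928 in Ovx + AngII mice (-1.89 ± 0.33, adjusted p = 0.00247). Inmt, a methyltransferase of small amines, was at 608, 1198, 1028 and 988 in Ovx and 344, 133, 98.0 and 281 with AngII (-2.29 ± 0.59, adjusted p = 0.0227). Cyp2e1, a cytochrome P450 known from the liver, was at 441, 264, 196 and 302 in Ovx and 88.4, 82.2, 36.0 and 163 with AngII (-1.82 ± 0.38, adjusted p = 0.00753). All 3 genes were lower in every treated library. Inmt did not pass the adjusted p without Ovx replicate 2, 3 or 4 or Ovx + AngII replicate 2 or 3 (up to 0.0868). The aldehyde oxidase Aox3 (-1.93 ± 0.30), T2 (-1.98 ± 0.33), Lingo3 (-1.76 ± 0.40), Klhl33 (-1.70 ± 0.40) and the mitochondrial folate enzyme Aldh1l2 (-1.34 ± 0.22) were called lower as well. Nat8f7, an acetyltransferase gene of a family of near-identical copies, was at 36.3, 52.7, 48.5 and 20.7 in Ovx and at 0 in all 4 Ovx + AngII libraries, at least 12.9-fold lower when each library at 0 is set to the value of 3 reads. Reads of its copies may have been divided differently, so this gene is uncertain.

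A few genes that mark the atria changed, in both directions. Of 17 atrial identity genes, 3 rose, Myl1, Nppa and Dkk3, and 2 fell, Kcnj3 and Stard10 (-0.68 ± 0.21). Of all genes, 5.89% rose and 4.34% fell. With 1 library left out, 1 to 3 atrial identity genes rose and 1 to 4 fell. Stard10 did not pass the adjusted p without Ctrl replicate 2, AngII replicate 3 or 4, Ovx replicate 1, 2, 3 or 4 or Ovx + AngII replicate 1, 2, 3 or 4 (up to 0.122). The atrial light chain Myl4 had a log2 fold change of 0.29 ± 0.17 (adjusted p = 0.315) and Myl7 of -0.42 ± 0.18 (adjusted p = 0.169), with no overlap between the groups in either. Of 7 ventricular identity genes, Myh7, Lbh (1.09 ± 0.17) and Kcnj2 changed, the first pair upwards. Scx, a transcription factor of tendon and valve, was at 23.7, 6.88, 7.51 and 25.9 in Ovx and 83.0, 32.0, 104 and 50.9 with AngII (2.10 ± 0.53, adjusted p = 0.0203). Scx did not pass the adjusted p without Ovx replicate 2 or 3 or Ovx + AngII replicate 1 or 3 (up to 0.0773). Csrp3, a stretch-sensing muscle protein, had a log2 fold change of 0.36 ± 0.14 (adjusted p = 0.103).

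No change of immediate early or interferon-stimulated genes was detected. Of 23 and 30 tested, 0 of either passed the adjusted p (limma). At an unadjusted p under 0.05 there were 2 and 0, against 3545 of all 14273 genes. Without Ctrl replicate 4, 1 immediate early gene rose. Of 20 clock genes, 1 fell by the adjusted p and 0 rose, near the 4.34% of all genes that fell. It was Cry2 (-0.66 ± 0.20, adjusted p = 0.0415), and the list had a median of -0.46. The summed clock level of Ovx replicate 1 was 25693, inside the 22325 to 29650 of the Ovx + AngII libraries. The other Ovx libraries were at 33361 to 40874. By the study's account the mice were killed at differing hours of the day, and the part of this in the clock genes was not tested. Between 0 and 4 clock genes fell with 1 library left out, more than 1 without Ctrl replicate 1, 3 or 4, and 2 fell on values scaled to equal totals. Cry2 did not pass the adjusted p without AngII replicate 2 or 3, Ovx replicate 2, 3 or 4 or Ovx + AngII replicate 1, 2 or 3 (up to 0.14). Of 20 glucocorticoid-responsive genes, 2 rose and 0 fell by the adjusted p, beside 5.89% and 4.34% of all genes. The list did not lean upwards, with 12 members below 0 and a median of -0.21. Cdkn1a, an inhibitor of the cell cycle, rose by 1.33 ± 0.28 and Ddit4, an inhibitor of mTOR, by 1.02 ± 0.22. In a list of 22 heat shock genes that did not hold Hspb1, 1 rose, near the 5.89% of all genes. It was Hspa1b (0.87 ± 0.24, adjusted p = 0.0332). Hspa1b did not pass the adjusted p without Ovx replicate 1, 2, 3 or 4 or Ovx + AngII replicate 3 (up to 0.121).

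The same infusion in intact mice of the same age gave fewer calls, 83 of 14273 genes (0.582%) and 423 by the adjusted p alone (2.96%). The median SD of the log2 values within a group was 0.21 in Ctrl and 0.18 in AngII mice. It was 0.13 in Ovx and 0.16 in Ovx + AngII mice. The fit used a common spread per gene for all groups, so the SE of a gene was the same for both responses. Ctrl replicate 4 stood apart, at a mean r of 0.945 with the other Ctrl libraries, against 0.963 to 0.966 for those. Its summed macrophage markers were at 54453 against 19739 to 27069, its neutrophil markers at 3066 against 358 to 521 and its interferon-stimulated genes at 54202 against 11263 to 32361. AngII replicate 4 held 0.788% haemoglobin, against 0.0825% to 0.194% in the other AngII libraries. The intact calls were 222 without Ctrl replicate 4, 147 without AngII replicate 4, and 30 to 54 without Ctrl replicate 1, 2 or 3 or AngII replicate 1 or 3. The part of these libraries in the lower number of calls was not otherwise tested. Of the 333 genes called in Ovx mice, 60 were called in the same direction in intact mice, which is 18.0% of the Ovx calls and 72.3% of the intact calls. The sign was shared by 320 of the 333. The difference between the 2 responses was tested for every gene, and 0 genes passed (limma, smallest adjusted p = 0.838). At an unadjusted p under 0.05 there were 828 of 14273, where a share of 0.05 is expected if no gene differs. So no gene was shown to respond differently in Ovx and intact mice.

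For the leading genes the values of both responses were as follows. Thbs4 had a log2 fold change of 1.76 ± 0.64 in intact mice, 4.27 ± 0.90 less than in Ovx mice, and Ctrl libraries already held 29.8, 22.9, 94.6 and 47.6. Acta1 had 3.34 ± 0.97 in intact mice, a difference of 4.53 ± 1.38, from 34.2, 4.01, 188 and 27.8 in Ctrl to 467, 787, 498 and 53.4 in intact mice with AngII. On the deposited scale the Ctrl libraries lay above the Ovx libraries for Thbs4, whereas for Acta1 they overlapped. Cilp rose by 1.77 ± 0.42 in intact mice (adjusted p = 0.0349) and Ltbp2 by 1.92 ± 0.44 (adjusted p = 0.0299). Wisp2 had 2.13 ± 0.28 (adjusted p = 0.0018) and Cemip 3.24 ± 0.52 (adjusted p = 0.00583), close to their values in Ovx mice. For Myh7 the value in intact mice was 0.35 ± 0.40 (adjusted p = 0.7), for Rspo3 -0.19 ± 0.44 (adjusted p = 0.865) and for Cyp2e1 -0.11 ± 0.38 (adjusted p = 0.91). For every gene, Thbs4 and Acta1 included, the adjusted p of the difference was 0.838 or higher (limma). The leading genes were chosen for their change in Ovx mice, which is part of this difference, so its size is likely overstated for them.

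**Figure D5:**
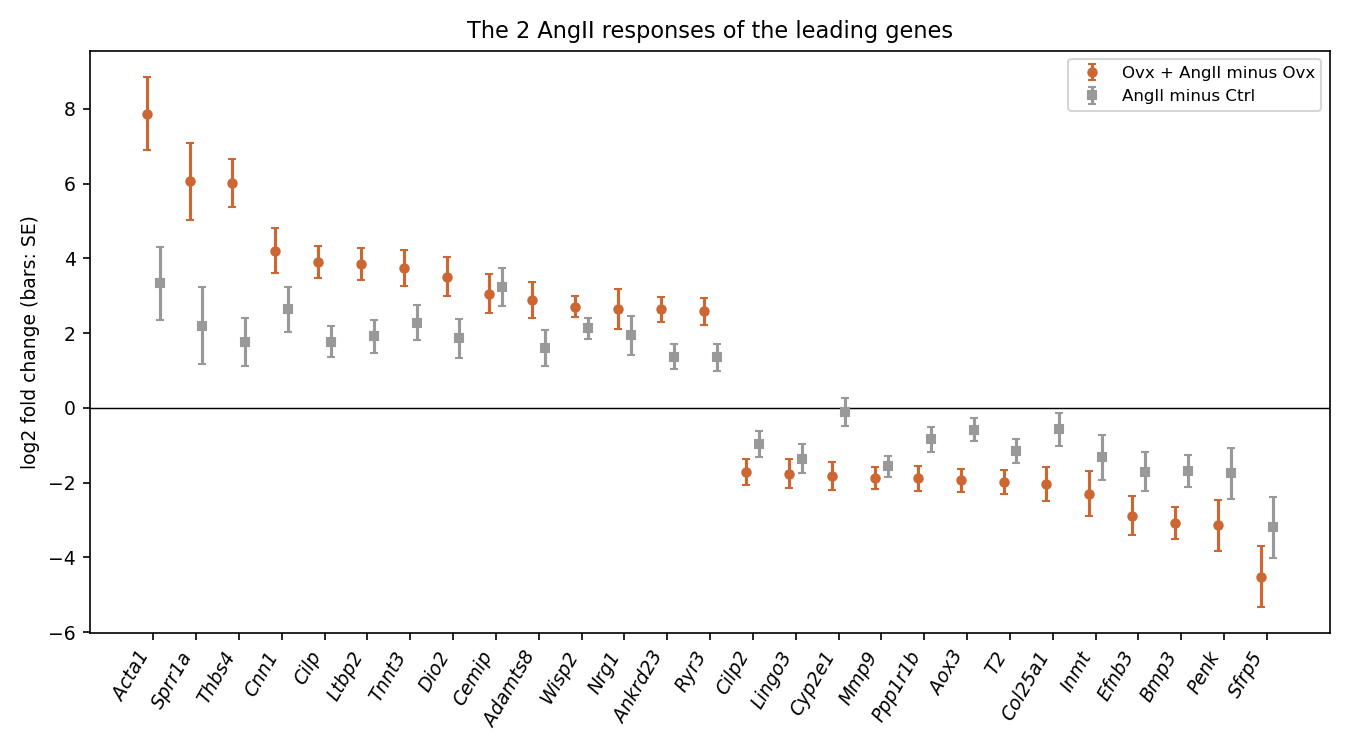
Log2 fold change with AngII in Ovx mice (circles) and in intact mice (squares), with SE bars, for 14 of the 15 largest rises and 13 of the 15 largest falls in Ovx mice. Thbs4 is at 6.02 in Ovx and 1.76 in intact mice, and Wisp2 at 2.70 and 2.13. The genes were chosen for their change in Ovx mice.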

How the data were processed

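Per the labels, RNA was extracted with TRIzol from whole LA and sequenced as stranded mRNA libraries. According to the submitters' processing notes and the study's methods, the authors used STAR, Salmon, the mouse build mm10 and the DESeq2 application of BaseSpace; versions and strand settings are not given in the sources used here. In the deposited table each gene has a signal, its read count divided by a size factor by the authors. Only 79.5% to 91.0% of low values lay within 0.1 of whole multiples of 1 read, so whole reads were not recovered and no count test was used. Of 24972 rows, 5997 were at 0 throughout and 14 had symbols turned into dates (0.0721% of all values), which are counted but not named.

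Values were analysed as log2(value + 1) with limma 3.58.1 in R 4.3.3 (4 group means over 16 libraries, eBayes with a mean trend), two-sided, with Benjamini-Hochberg adjustment over 14273 genes, and checked on simulated data. Lists are described by counts and medians, with no set test. Members and lists were chosen with earlier results of these data known. Genes were named by rule: the 15 largest rises and falls among calls with a mean of 50 or more and no overlap; from each list, up to 4 called members, up to 2 past the adjusted p alone where fewer than 2 were called, and the 2 highest members not past it; and 10 genes of the renin-angiotensin, oestrogen and fetal programmes. The text names 149 genes in its results, of which 45 fall outside the rule and were chosen after their values were seen: Acta2, Ankrd1, Bgn, Cacna1c, Casq2, Col1a2, Col3a1, Col5a2, Ctgf, Ddah1, Dkk3, Dsg2, Emilin2, Fap, Fbn1, Fn1, Hspb1, Kcna5, Kcnd2, Kcnh2, Kcnj2, Kcnk3, Kcnq1, Loxl2, Meox1, Mlycd, Mmp2, Myl7, Myom3, Nat8f7, Pcolce, Pgam2, Pi16, Podn, Prelp, Slc16a1, Slc27a1, Sost, Sparc, Stard10, Tgfb2, Tgfb3, Tgfbr3, Tln2, Tnc. A few genes that met the rule are not reported here. Alternatives were pseudocounts of 0.5 and 5, no filter or a mean of at least 50, a filter on the 8 Ovx libraries alone, median-of-ratios and equal-total rescaling, a fit on 8 libraries, robust and array-weighted fits, calling by adjusted p alone, and leaving out each library in turn.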

Additional observations from a re-analysis of the deposited data

Results flagged for a closer look

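Among the 149 named genes, each group of 4 libraries was searched for a library whose gap to the nearest other was large against the range of the 4 (Dixon's test at the 95% level). Of 298 groups searched, 25 held such a library, and chance gives about 1 in 20. Ovx + AngII replicate 2 stood above the other 3 libraries of its group for Actn2 at 52638 against 46735 to 47735, Aldh1l2 at 731 against 506 to 532, Casq2 at 32109 against 25216 to 26188, Itgb6 at 106 against 54.0 to 62.5, Myh6 at 688340 against 557740 to 571460 and Ppp1r1b at 1770.4 against 928 to 1019. Ovx + AngII replicate 2 stood below the other 3 libraries of its group for Dkk3 at 23026 against 26781 to 27513. Ovx + AngII replicate 3 stood above the other 3 libraries of its group for Hspa1b at 352 against 187 to 194, Lox at 719 against 374 to 427 and Thbs1 at 2851 against 566 to 775. Ovx + AngII replicate 3 stood below the other 3 libraries of its group for Camk2a at 1025 against 1111 to 1127. Ovx replicate 1 stood above the other 3 libraries of its group for Actn2 at 36703 against 32794 to 33068, Cdkn1a at 576 against 426 to 438, Hspb1 at 4114 against 2527 to 2689, Kcnj15 at 44.5 against 31.7 to 33.1 and Meox1 at 571 against 332 to 353. Ovx replicate 1 stood below the other 3 libraries of its group for Dsg2 at 4859.7 against 5404 to 5462. Ovx replicate 2 stood above the other 3 libraries of its group for Col12a1 at 82.5 against 55.4 to 57.5 and Kcnj2 at 1308 against 1108 to 1111. Ovx replicate 2 stood below the other 3 libraries of its group for Esr1 at 98.7 against 147 to 153. Ovx replicate 3 stood above the other 3 libraries of its group for Sfrp2 at 520.3 against 278 to 299. Ovx replicate 3 stood below the other 3 libraries of its group for Mmp2 at 2420.1 against 2773 to 2834. Ovx replicate 4 stood above the other 3 libraries of its group for Nppb at 4469 against 3818 to 3865. Ovx replicate 4 stood below the other 3 libraries of its group for Sdhc at 6324 against 6897 to 6947 and Slc27a1 at 2902 against 3640.2 to 3747. The causes were not tested.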

How the results depend on the processing

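Of 149 named genes, 136 passed the adjusted p, and 96 of these passed in all 16 fits with 1 library left out. The 40 that did not are given in the report with the libraries concerned. The 333 calls became 1459 by the adjusted p alone (840 higher, 619 lower), and 209 to 380 with 1 library left out (126 to 206 higher, 83 to 174 lower). Genes called lower numbered 93 with a mean of at least 50 and 233 with array weights, beside 224 higher. The 83 calls in intact mice became 161 with array weights, 423 by the adjusted p alone and 30 to 222 with 1 library left out. The difference between the responses gave 0 calls, and 0 to 1 with 1 library left out, 1 without AngII replicate 1. On values scaled to equal totals 162 genes were called higher and 174 lower. Under these settings the causes were not tested. Esr1, at -0.03, had the opposite sign with array weights (0.011); with 1 library left out it lay between -0.18 and 0.083, above 0 without Ovx replicate 1 (0.015), 3 (0.0083) or 4 (0.028) or Ovx + AngII replicate 2 (0.083) or 3 (0.015). With both pseudocounts, median-of-ratios rescaling and the filter on the 8 Ovx libraries, no named gene changed its side of the adjusted p. It was passed by 12 fewer with no filter, 2 fewer with equal totals and 3 fewer, with 1 more, in the robust fit, and by 8 more in the fit on 8 libraries, 6 more with array weights and 1 more with a mean of at least 50. Depth limits genes near 0, whose fold changes depend on the pseudocount. No paired analysis was possible because the replicate numbers follow the order of deposition and the labels give no pairing.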
